A study of Mus musculus with 2 samples.

Results

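The genes described here are 10 markers of neurotransmitter identity, namely Slc17a6, Gad1, Gad2, Slc32a1, Slc6a5, Chat, Slc18a3, Th, Dbh and Slc18a2. They were taken by symbol from 21937 gene features of a single-cell RNA-seq series of mouse embryos at E11.5, and all 10 were present in the table. The embryos carried a piggyBac transgene in which the CAG promoter, active in most tissues, drives EGFP linked to a DNA barcode. Cells of 4 suspensions were tagged with multiplexing oligos, pooled and run as 1 droplet library (genotype: DNA barcode-linked GFP Tg). F0_8 and F0_9 are founders, which grew from zygotes that had received the donor DNA and the transposase mRNA. F1_1 belongs to the F1 generation, and F1_mix is a pseudo-mosaic sample in which cells of F1 embryos were mixed, so that it is not 1 animal. The question asked of the 10 genes was which transmitter fates could be seen in the cells of this stage, and whether their levels differed between the founder and F1 suspensions.

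A neuron is assigned to a transmitter by the enzymes that make the transmitter and by the transporters that load it into vesicles or take it back from the synapse. Slc17a6 encodes the vesicular glutamate transporter VGLUT2. Gad1 and Gad2 encode the glutamate decarboxylases that make GABA, and Slc32a1 encodes the vesicular transporter that loads GABA and glycine, while Slc6a5 encodes the neuronal glycine transporter GlyT2. Chat makes acetylcholine and Slc18a3 loads it into vesicles. Th and Dbh catalyse steps of catecholamine synthesis, and Slc18a2 encodes the vesicular monoamine transporter VMAT2. In the embryo, motor neurons are cholinergic and sympathetic neurons noradrenergic, while interneurons of the spinal cord and brainstem use glutamate, GABA or glycine.

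The 5678 cells of the authors' table held 68972620 gene UMIs, with medians of 10880 to 13267 gene UMIs per cell in the 4 suspensions, and no cell barcode was shared between suspensions. Each cell carried 1 of 16 cell type labels, and 4 of these types were shallow, with a median depth more than 3 times below the median over the whole table. Levels are given as UMIs per 10000 gene UMIs, summed over the cells of a type in a suspension, as mean ± SD over the 4 suspensions (n = 4) unless stated otherwise. A cell that held at least 1 UMI of a gene is called a carrier, and shares of carriers and their exact 95% binomial intervals are pooled over suspensions and cover counting error only. These are 3′ counts that are not given per length, so levels are compared within a gene and not between genes. The cell types had been defined by the authors on expression that includes these genes, so that differences between types are described and not tested.

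The label of the type with the highest levels went against its marker genes. The cells labelled Neuroectoderm/Glia (502 cells) carried 115 UMIs of 8 pan-neuronal genes per 10000 UMIs outside mitochondrial genes, against 84.1 in CNS Neuron (532 cells) and 8.23 in Neuronal Progenitor (597 cells). Tubb3 and Stmn2, which encode a neuronal tubulin and a growth cone protein, were found in 100% of the Neuroectoderm/Glia cells. The 4 astroglial genes summed to 0.0361 per 10000 in those cells, and Gfap, the intermediate filament of astrocytes, was at 0 UMIs. The progenitor gene Sox2 was found in 9.36% of Neuroectoderm/Glia cells, 33.1% of CNS Neuron cells and 93.8% of Neuronal Progenitor cells. The proliferation gene Mki67 was found in 4.58%, 8.27% and 72.9% of them, respectively. The labels are kept below as names of clusters only, and Neuroectoderm/Glia is treated as a cluster of neurons by its leading genes.

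Slc17a6, the marker of the glutamate fate, held 1712 UMIs in all. In Neuroectoderm/Glia its level was 1.77 and 2.17 in the founders F0_8 and F0_9, and 2.12 and 1.82 in F1_1 and F1_mix, a mean of 1.97 ± 0.20. In CNS Neuron the suspensions held 0.946, 0.690, 0.542 and 0.578 in the same order, a mean of 0.689 ± 0.183, and the ranges of both types did not overlap. Neuronal Progenitor followed at 0.0552 ± 0.0326, lower than CNS Neuron in 4 of 4 suspensions, and its range overlapped that of the next type in the order, Hematoendothelial Progenitor/Endothelium (0.0157). Slc17a6 was carried by 241 of 502 Neuroectoderm/Glia cells (48.0%, 43.6 to 52.5%) and 108 of 532 CNS Neuron cells (20.3%, 17.0 to 24.0%). The carriers in Neuroectoderm/Glia held a median of 4 UMIs and up to 18. In red blood cells (204 cells of Erythroblast and Erythrocyte, which should lack neuronal genes), 1 cell carried Slc17a6 (0.490%), at a median depth of 27491.5 gene UMIs against 11437.5 in Neuroectoderm/Glia and 10898.5 in CNS Neuron.

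Gad2 and Gad1, the enzymes of GABA synthesis, and Slc32a1, the transporter that loads GABA, were ordered in the same way. In Neuroectoderm/Glia, Gad2 stood at 3.78 and 2.71 in F0_8 and F0_9, and at 1.94 and 2.63 in F1_1 and F1_mix, a mean of 2.77 ± 0.76, and at 1.22 ± 0.20 in CNS Neuron. The 2 ranges did not overlap, with F0_8 the highest and F1_1 the lowest in both types. Gad1 stood at 0.701 ± 0.107 and 0.489 ± 0.126, higher in Neuroectoderm/Glia in 4 of 4 suspensions although the ranges over suspensions overlapped. Slc32a1 stood at 0.651, 0.590, 0.656 and 0.620 in Neuroectoderm/Glia, the narrowest spread among the 10 genes relative to its mean (0.629 ± 0.030), and at 0.300 ± 0.067 in CNS Neuron. In Neuronal Progenitor the levels were 0.129 ± 0.094 for Gad2, 0.0338 ± 0.0137 for Gad1 and 0.0206 ± 0.0091 for Slc32a1. Gad2 was carried by 210 Neuroectoderm/Glia cells (41.8%), with a median of 7 UMIs, Slc32a1 by 172 (34.3%) and Gad1 by 167 (33.3%). Red blood cells carried them in 1.96%, 1.47% and 2.45% of cells, respectively.

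Slc6a5, the glycine transporter gene, reached 1.10 and 0.585 in F0_8 and F0_9, and 0.959 and 0.605 in F1_1 and F1_mix, in Neuroectoderm/Glia (0.813 ± 0.258). It stood at 0.391 ± 0.125 in CNS Neuron, and the ranges did not overlap. Neuronal Progenitor held 2 UMIs of it in 597 cells, and the next type in the order was Myoblast/Cardiomyocyte at 0.0100, 39.0 times lower than CNS Neuron. It was carried by 121 Neuroectoderm/Glia cells (24.1%, 20.4 to 28.1%) and 55 CNS Neuron cells (10.3%, 7.88 to 13.2%), against 1 of 204 red blood cells.

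**Figure D1:**
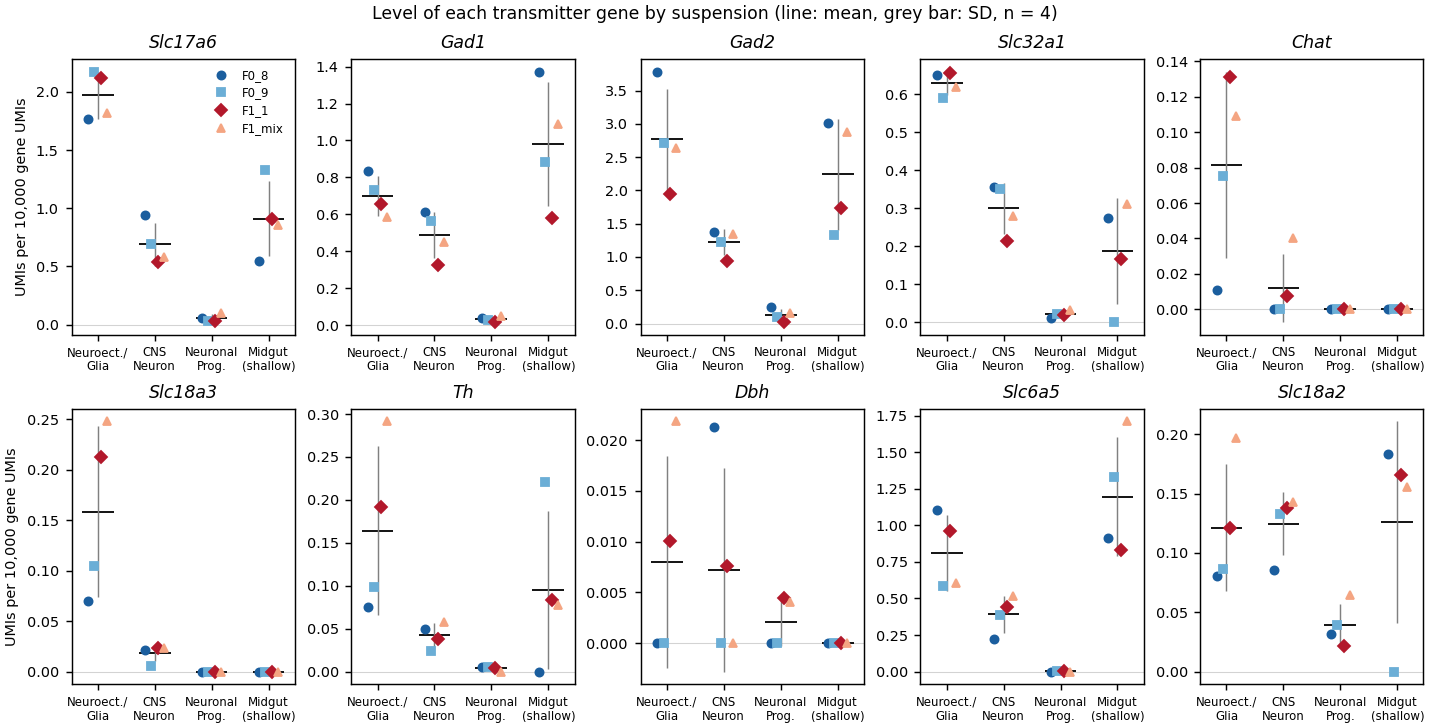
Level of each of the 10 genes (UMIs per 10000 gene UMIs, own linear scale per gene) in Neuroectoderm/Glia, CNS Neuron, Neuronal Progenitor and the shallow Midgut type. Points are the 4 suspensions, lines their mean and grey bars their SD. For Slc17a6, Gad2, Slc32a1 and Slc6a5 all Neuroectoderm/Glia points sit above all CNS Neuron points, while Slc18a2 is at about the same height in both.

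The cholinergic pair, Chat and Slc18a3, was rare and lay mostly in Neuroectoderm/Glia. Slc18a3 held 98 UMIs in all, 86 of them in 29 Neuroectoderm/Glia cells (5.78%, 3.90 to 8.19%). Its level there was 0.0699 and 0.104 in F0_8 and F0_9, and 0.212 and 0.248 in F1_1 and F1_mix (0.159 ± 0.085), so that both founders were below both F1 suspensions, and it was 0.0183 ± 0.0082 in CNS Neuron. Chat held 58 UMIs, 43 of them in 20 Neuroectoderm/Glia cells (3.98%, 2.45 to 6.09%), and its level ranged from 0.0108 in F0_8 to 0.131 in F1_1. It was higher than in CNS Neuron (0.0119 ± 0.0191) in 4 of 4 suspensions, although the ranges overlapped. Both genes were at 0 UMIs in the 597 Neuronal Progenitor cells, and the limit of 3 counts allows up to 0.503% of these cells to hold a UMI, which does not limit the cells that express genes as sparse as these. In red blood cells Slc18a3 was at 0 UMIs and Chat in 1 cell.

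The 2 cholinergic genes share a locus. On GRCm38.p6, Slc18a3 (chr14:32462437-32464850, minus strand) lies within the span of Chat (chr14:32408203-32465909, minus strand), so that reads in the shared stretch could be assigned to either gene or to none. They were found in the same cells, with 17 of 20 Chat carriers in Neuroectoderm/Glia also holding Slc18a3, against 12 of the other 482 cells. The 250 bases before each of their start sites are shown since they are the neighbouring promoters of genes found together. They are RefSeq promoter sequences of GRCm38.p6, read 5′ to 3′ on the minus strand, from chr14:32465910-32466159 for Chat and chr14:32464851-32465100 for Slc18a3. Capitals mark CCAAT and the E-box CAGCTG in Chat, and the GC box GGGCGG, read on the opposite strand, in Slc18a3.
Chat: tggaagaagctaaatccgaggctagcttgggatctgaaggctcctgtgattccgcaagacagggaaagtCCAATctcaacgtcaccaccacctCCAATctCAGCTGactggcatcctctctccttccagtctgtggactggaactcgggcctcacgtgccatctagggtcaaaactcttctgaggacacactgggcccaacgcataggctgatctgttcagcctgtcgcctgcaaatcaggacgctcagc
Slc18a3: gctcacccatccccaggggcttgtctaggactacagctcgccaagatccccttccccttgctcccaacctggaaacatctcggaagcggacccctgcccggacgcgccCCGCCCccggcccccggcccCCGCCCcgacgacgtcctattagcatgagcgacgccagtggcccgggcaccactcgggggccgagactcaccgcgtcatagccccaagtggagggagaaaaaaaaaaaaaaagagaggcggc
Over 32851 such windows of the genome, searched on both strands, CCAAT was present in 33.8%, CAGCTG in 13.0% and GGGCGG in 32.7%, so that none of these matches is rare. The GC content was 54.8% for Chat and 66.0% for Slc18a3.

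The catecholamine genes were sparse, and Dbh was barely detected at this depth. Th, the first enzyme of the pathway, held 130 UMIs, with levels in Neuroectoderm/Glia of 0.0753 and 0.0984 in F0_8 and F0_9, and 0.192 and 0.292 in F1_1 and F1_mix (0.164 ± 0.099). In CNS Neuron it stood at 0.0424 ± 0.0144. These 2 ranges did not overlap, and both founders were again below both F1 suspensions in Neuroectoderm/Glia. It was carried by 47 Neuroectoderm/Glia cells (9.36%, 6.96 to 12.3%) and 18 CNS Neuron cells (3.38%), and no red blood cell carried it. Of the 47 carriers, 31 held a single UMI and the highest held 9. Dbh, which turns dopamine into noradrenaline, held 11 UMIs in all 5678 cells, 4 of them in 2 Neuroectoderm/Glia cells and 4 in 2 CNS Neuron cells, and no cell of either type held both Th and Dbh.

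Slc18a2, the vesicular monoamine transporter gene, was the exception in the order of types. Its level was 0.125 ± 0.027 in CNS Neuron and 0.121 ± 0.053 in Neuroectoderm/Glia, higher in CNS Neuron in 3 of 4 suspensions, with overlapping ranges. It was carried by 52 CNS Neuron cells (9.77%) and 45 Neuroectoderm/Glia cells (8.96%), and 37 of the 45 held a single UMI. It was also the least specific of the 10 genes, since red blood cells carried it in 11 of 204 cells (5.39%, 2.72 to 9.44%) at their higher depth. Both neuron-rich types together held 52.7% of its UMIs, against 86.3% for Gad1, 92.5% for Slc17a6 and 99.0% for Slc18a3. In 9 other deep types together, 77 of 2678 cells carried Slc18a2 (2.88%).

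**Figure D2:**
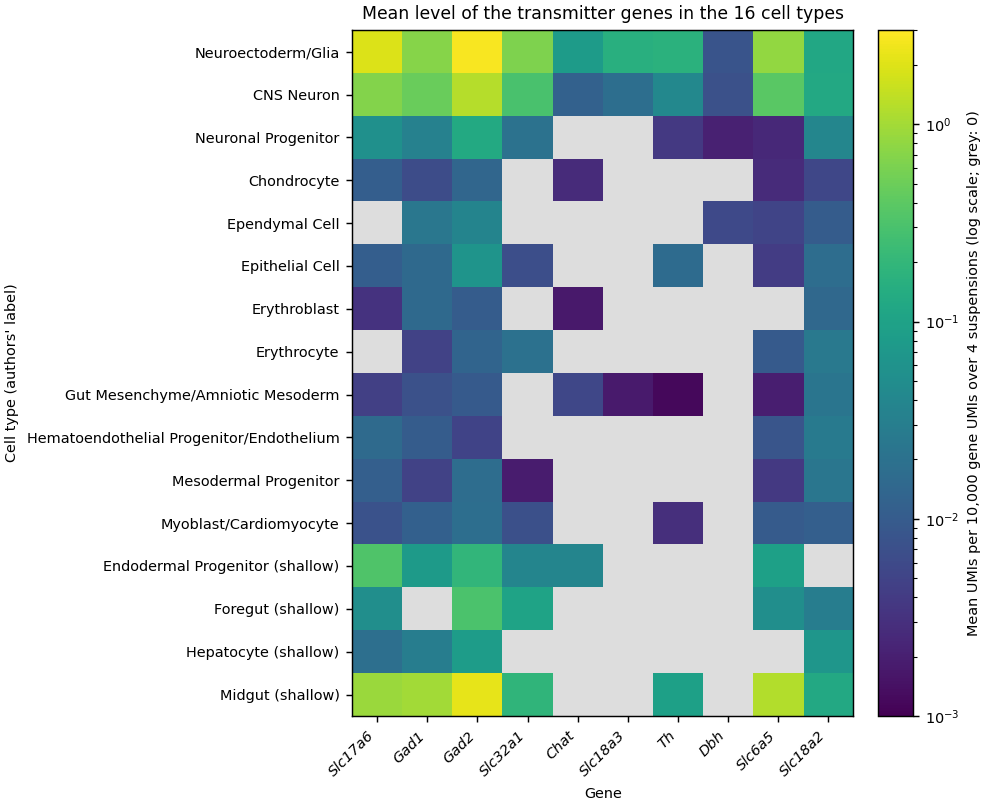
Mean level of the 10 genes (UMIs per 10000 gene UMIs over 4 suspensions, log colour scale, grey for 0) in each of the 16 cell types. The 2 upper entries, Neuroectoderm/Glia and CNS Neuron, are the highest of the deep types for every gene, and the shallow Midgut type at the bottom stands out among the shallow types.

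The shallow type labelled Midgut (333 cells, median 998 gene UMIs) also held these genes, which are not markers of gut. Its levels were 2.24 ± 0.84 for Gad2, 1.20 ± 0.41 for Slc6a5, 0.982 ± 0.334 for Gad1 and 0.911 ± 0.320 for Slc17a6. Slc32a1 stood at 0.188 ± 0.140 and Th at 0.0955 ± 0.0920, while Chat, Slc18a3 and Dbh were at 0 UMIs, which allows a level of up to 0.0743. The pan-neuronal genes summed to 53.9 per 10000 UMIs outside mitochondrial genes in these cells, and the 4 hepatocyte genes to 0.0329. A median of 27.7% of its gene UMIs were mitochondrial, against 2.26% in Neuroectoderm/Glia. Barcodes outside the suspensions with 100 to 300 gene UMIs stood at 0.973 for Gad2, 0.717 for Slc17a6, 0.359 for Gad1 and 0.313 for Slc6a5, as levels in droplets that were not called cells. Those with 1 to 100 gene UMIs stood lower, at 0.525, 0.314, 0.174 and 0.127 in the same order. The part of free RNA in the Midgut values was not tested. In 9 other deep types pooled, the level was 0.0175 for Gad2 and 0.0045 for Slc6a5.

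Grouped by transmitter, the mean share of cells with at least 1 UMI of a class was larger in Neuroectoderm/Glia than in CNS Neuron for all classes but the vesicular monoamine transporter (9.32 ± 3.18% and 9.77 ± 3.48%). This order turned round with each cell thinned to 5000 gene UMIs, where its mean shares were 5.23% and 4.20%. As means over the suspensions, glutamate (Slc17a6) was found in 48.6 ± 3.6% of Neuroectoderm/Glia cells and 20.4 ± 3.1% of CNS Neuron cells. GABA (Gad1, Gad2 or Slc32a1) was found in 42.5 ± 5.9% and 26.2 ± 6.9%, and glycine (Slc6a5) in 23.2 ± 5.4% and 10.2 ± 2.3%. Acetylcholine (Chat or Slc18a3) was found in 7.09 ± 3.15% and 2.19 ± 1.22%, and the catecholamine class (Th or Dbh) in 11.1 ± 5.9% and 3.88 ± 1.53%. The ranges of the glutamate share did not overlap between the types, and neither did those of the GABA share, whose lowest Neuroectoderm/Glia value (35.4%, F1_1) was above the highest CNS Neuron value (33.8%, F0_9). The catecholamine ranges overlapped, and in F0_8 this share was lower in Neuroectoderm/Glia (4.88%) than in CNS Neuron (5.56%). Any of the 10 genes was found in 473 of 502 Neuroectoderm/Glia cells (94.2%, 91.8 to 96.1%) and 271 of 532 CNS Neuron cells (50.9%, 46.6 to 55.3%). With each cell thinned to 5000 gene UMIs (13 shallower cells left out in Neuroectoderm/Glia and 17 in CNS Neuron), these last shares were 85.7% and 41.2%.

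**Figure D3:**
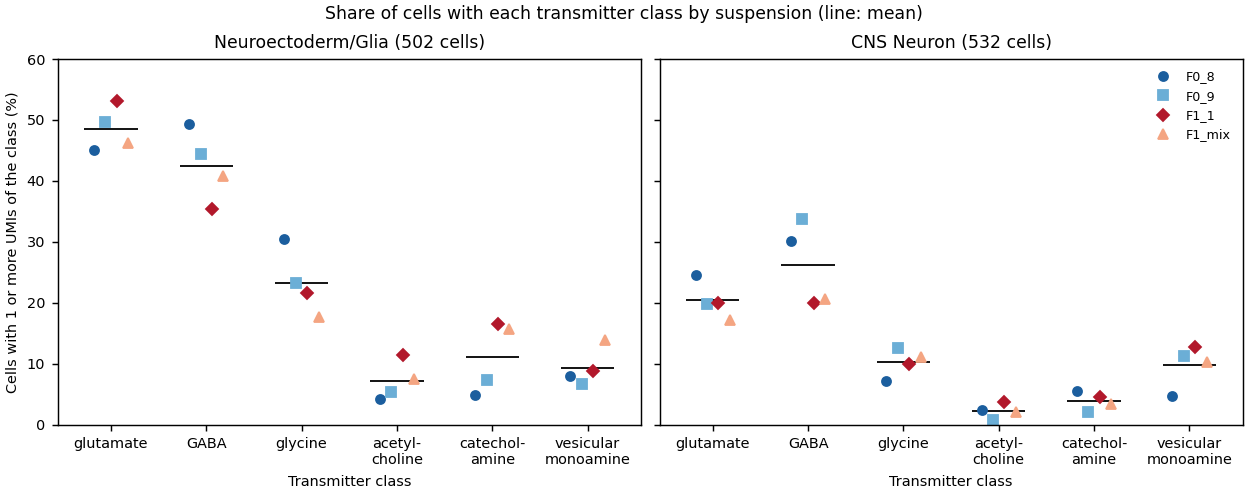
Share of cells with at least 1 UMI of each transmitter class (%) in Neuroectoderm/Glia (left) and CNS Neuron (right). Points are the 4 suspensions and lines their mean, with glutamate at 45.1 to 53.2% on the left and 17.2 to 24.6% on the right.

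Within single cells, the glutamate gene and the GABA genes were almost never found together. Of 241 Slc17a6 carriers in Neuroectoderm/Glia, 7 also carried Gad2 (2.90%), while 203 of the other 261 cells did (77.8%). The 7 cells were spread as 2, 2, 2 and 1 over F0_8, F0_9, F1_1 and F1_mix, and 2 cells held at least 2 UMIs of each gene, so that the others rest on a single UMI of 1 of the genes. In CNS Neuron, 6 of 108 Slc17a6 carriers also carried Gad2 (5.56%), against 117 of the other 424 cells (27.6%). Taking glutamate, GABA and glycine together, 232 Neuroectoderm/Glia cells held only the glutamate gene, 93 only GABA genes, 119 GABA genes with Slc6a5 and 49 none of the 3 classes. A further 7 held Slc17a6 with a GABA gene, 1 held it with Slc6a5 and 1 held all 3 classes. In CNS Neuron, 283 cells held none of the 3 classes.

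**Figure D4:**
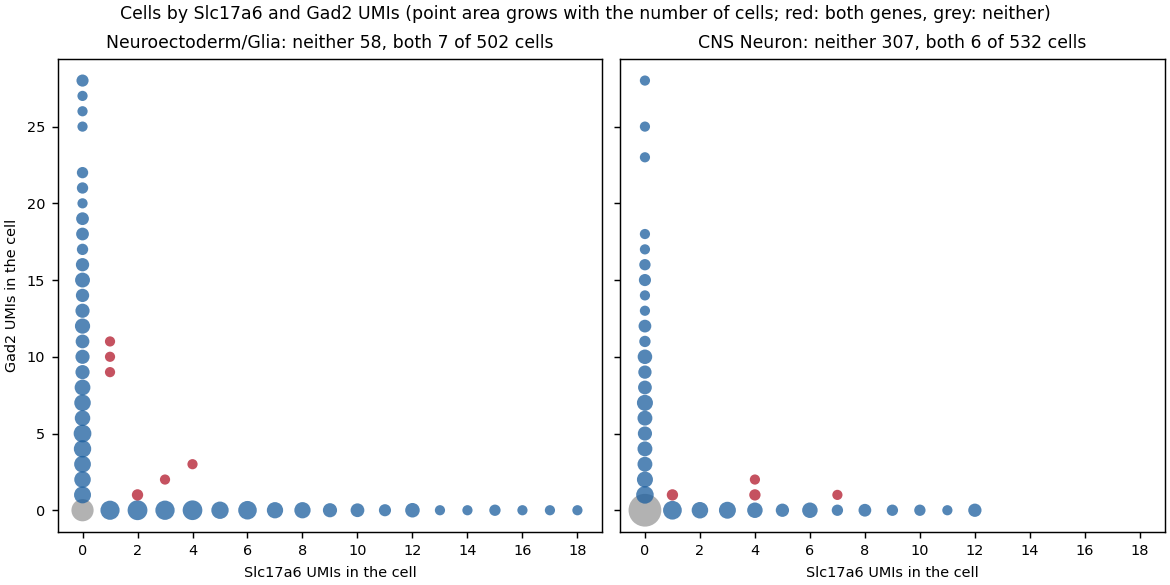
Number of cells (point area) by their Slc17a6 UMIs (horizontal axis) and Gad2 UMIs (vertical axis) in Neuroectoderm/Glia and CNS Neuron. Nearly all cells lie along 1 of the 2 axes, and 7 of 502 and 6 of 532 cells (red) lie off both.

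Genes of the inhibitory fates were nested. In Neuroectoderm/Glia, 162 of 167 Gad1 carriers (97.0%) and 165 of 172 Slc32a1 carriers (95.9%) also carried Gad2. All but 7 of the 121 Slc6a5 carriers carried Gad2 (94.2%), and no cell of that type held Slc6a5 with neither a GABA gene nor Slc17a6. In the other direction, 54.3% of the Gad2 carriers held Slc6a5. The nesting was looser in CNS Neuron, where 84.4% of Gad1 carriers, 89.1% of Slc32a1 carriers and 81.8% of Slc6a5 carriers also carried Gad2, and 6 cells held Slc6a5 without a gene of the other 2 classes. These shares were not tested against each other, since cells of a suspension are not replicates.

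Carriers of the minor classes were set beside all Neuroectoderm/Glia cells, of which 48.0% carried Slc17a6 and 41.8% Gad2. Of 47 Th carriers, 21 carried Slc17a6 (44.7%) and 18 carried Gad2 (38.3%), and 4 carried Slc18a2, the transporter that would load a monoamine. Of 29 Slc18a3 carriers, 14 also held Slc17a6 (48.3%) and 3 held Gad2 (10.3%). Among Slc18a2 carriers, 28 of 45 held Slc17a6 (62.2%) and 13 held Gad2 in Neuroectoderm/Glia, while in CNS Neuron 9 of 52 held Slc17a6 (17.3%) and 22 held Gad2 (42.3%). A single UMI decided most Slc18a2 carriers in both types, and the shares were not tested against each other.

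The genes most enriched in carriers were named for 9 of the 10 members, since Dbh had too few carriers. In the 241 Slc17a6 carriers of Neuroectoderm/Glia the 5 genes with the highest ratio of level to the other cells were Barhl2 (28.9 times), Adcyap1 (22.4), Lhx9 (14.3), Nrn1 (9.57) and Tmem163 (8.54). Barhl2 and Lhx9 are homeodomain factors of the dorsal spinal cord and diencephalon, and Adcyap1 encodes the neuropeptide PACAP. Nrn1 was found in 88.0% and Tmem163 in 92.1% of the Slc17a6 carriers. One of the 2 windows before the Slc17a6 start sites listed in RefSeq, chr7:51624387-51624636 (plus strand, GRCm38.p6), holds TAATTA, a core bound by many homeodomain proteins, and CATCTG, an E-box read on the opposite strand, both in capitals. It is shown because 2 of the 5 companions of Slc17a6, Barhl2 and Lhx9, are homeodomain genes. Adcyap1 came first in place of Barhl2 without F0_8, without F0_9 and without F1_mix.
Slc17a6: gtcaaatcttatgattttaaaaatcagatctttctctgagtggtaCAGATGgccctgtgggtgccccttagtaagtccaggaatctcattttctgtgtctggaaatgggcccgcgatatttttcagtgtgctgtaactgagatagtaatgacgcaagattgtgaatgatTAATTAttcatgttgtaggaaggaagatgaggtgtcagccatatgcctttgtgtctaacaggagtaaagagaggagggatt
TAATTA was present in 4.84% and CATCTG in 14.4% of the 32851 windows, and neither was present in the other Slc17a6 window. The matches say nothing about binding.

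The carriers of the GABA genes shared companions. In the 210 Gad2 carriers the leading genes were Slc32a1 (73.8 times), Gad1 (67.3), Pax8 (46.2), Slc6a5 (39.6) and Sp9 (27.5), of which Slc32a1, Gad1 and Slc6a5 are members of the 10. In the 167 Gad1 carriers they were Pax8 (15.3), Slc30a3 (15.3), Pax2 (14.2), Slc6a5 and Adamtsl1 (13.9), and in the 172 Slc32a1 carriers Pax8 (19.0), Pax2 (12.7), Slc6a5 (9.54), Gad2 (9.44) and Slc30a3 (8.60). Pax2 and Pax8 are paired-box factors of inhibitory interneurons, and Slc30a3 encodes the vesicular zinc transporter.

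In the 121 Slc6a5 carriers the leading companions were Pax2 (40.5 times, in 81.0% of carriers) and Pax8 (39.5 times, in 66.9%), followed by Adamtsl1 (19.9), Skor1 (17.1) and Lamp5 (14.2, in 95.0%). The ratio of Pax2 lay between 33.2 and 154 in the 4 suspensions. One of the 2 windows before the Slc6a5 start sites listed in RefSeq, chr7:49910049-49910298 (plus strand, GRCm38.p6), holds GTCACGC, a core of the sites of the Pax2 and Pax8 family, marked in capitals, and is shown because these 2 factors lead the list.
Slc6a5: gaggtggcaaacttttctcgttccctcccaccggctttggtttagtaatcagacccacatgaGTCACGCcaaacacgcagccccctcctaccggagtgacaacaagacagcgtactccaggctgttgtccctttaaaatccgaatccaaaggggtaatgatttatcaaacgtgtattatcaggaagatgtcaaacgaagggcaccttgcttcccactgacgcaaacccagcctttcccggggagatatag
GTCACGC was present in 1.78% of the 32851 windows and in 1 of the 12 windows of the 10 genes, and the match says nothing about binding.

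The cholinergic and catecholamine carriers had their own companions. In the 20 Chat carriers these were Mnx1 (293 times, with 60 UMIs in carriers and 3 in the other 482 cells), Uts2b, Creb5, Slc18a3 (59.5) and Slc5a7 (55.0). Mnx1 is a homeodomain factor of motor neurons, and Slc5a7 encodes the high-affinity choline transporter that supplies acetylcholine synthesis. In the 29 Slc18a3 carriers they were Chat (109), Dlc1 (47.6), Arhgap36 (47.3), Isl2 (26.4) and Lhx4 (25.1). In the 47 Th carriers they included Dlx5 (5.10), Dlx1 (4.63), Dlx2 and Elmsan1 (3.19). The Dlx genes are homeodomain factors of forebrain GABA neurons. In the 52 Slc18a2 carriers of CNS Neuron the ratios were lower, at most 4.02 (Klhl14). Without F0_8 only 1 of these 5 companions stayed among the leading 5, while 2 of 5 did for Th and 2 of 5 for Slc32a1.

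Lists of fate regulators were then compared between groups of Neuroectoderm/Glia cells. A listed gene was counted when it held at least 10 UMIs in that type and its level was higher in the group than in the other cells in every suspension compared. In 233 cells with Slc17a6 and no GABA gene, 12 of 16 glutamate regulators were counted and 0 of 15 GABA regulators, where 9.38% of all 11827 genes were. The median log2 ratio was 2.80 for the glutamate regulators, -5.09 for the GABA regulators and -0.0041 for all genes. Of the other lists, 4 of 8 midbrain dopamine regulators were counted in these cells (50.0%, median log2 ratio 1.29), namely Foxa1, Lmx1a, Lmx1b and Nr4a2, of which Lmx1b is also on the glutamate list. The serotonin list had 1 of 7 (Lmx1b), the hypothalamus list 1 of 6 (Sim1), and the motor neuron and sympathetic lists none. The 12 included Barhl1, which was found in 15.0% of these cells and 0.743% of the others, Barhl2 (33.9% and 1.86%), Tbr1 (16.7% and 1.49%), Tlx3 (13.3% and 2.23%), Lhx2 (42.5% and 5.20%) and Pou4f1 (32.2% and 5.95%). Neurog1, Neurog2 and Atoh1, proneural factors that act in dividing or newly formed cells, were highest in CNS Neuron, where Neurog2 was carried by 194 cells against 50 in Neuroectoderm/Glia.

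In 119 cells with Slc6a5 and no Slc17a6, 7 of 15 GABA regulators were counted (46.7%), namely Gata2, Gata3, Lhx1, Lhx5, Pax2, Pax8 and Tal1, and 0 of 16 glutamate regulators, where 8.95% of all genes were, and the median log2 ratio was 0.71 for the GABA regulators. Gata2 and Gata3 also made up the 2 of 6 sympathetic and 2 of 7 serotonin regulators counted there, and 1 of 8 midbrain dopamine regulators was counted (En1). Lhx1 was found in 89.9% of these cells and Lhx5 in 88.2%. In 93 cells with a GABA gene and neither Slc6a5 nor Slc17a6, 6 of 15 were counted (40.0%, 6.64% of all genes, median log2 ratio 2.73), among them Dlx5, Gata3, Lhx1, Sp9 and Tal1. Other lists came close to this share in the same cells. The hypothalamus list had 2 of 6 (33.3%, median log2 ratio 1.37, Nkx2-1 and Six3). The sympathetic list had 2 of 6 (33.3%, median log2 ratio 1.18, Gata3 among them). Of the serotonin list, 2 of 7 were counted (28.6%, Gata3 and Nkx2-2), while 1 of 8 midbrain dopamine regulators (Otx2) and 0 of 16 glutamate regulators were counted. Gata3, Lhx1 and Tal1 were counted in both inhibitory groups. Dlx5 was found in 46.2% of the cells without Slc6a5 and in none of the cells with it, while Pax2 was found in 81.5% of the cells with Slc6a5. Six3, a factor of the forebrain and eye, was found in 41.9% of the cells without Slc6a5.

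In the 32 cells with Chat or Slc18a3, 5 of 10 motor neuron regulators were counted (50.0%, 5.65% of all genes, median log2 ratio 2.89), namely Isl1, Isl2, Lhx3, Lhx4 and Nkx6-1. Of the other lists, only the hypothalamus list had a gene counted, 1 of 6, which was again Isl1. Isl1 was found in 46.9% of these cells and 7.45% of the others, Lhx4 in 46.9% and 2.55%, and Lhx3 in 31.2% and 1.70%. All 63 UMIs of Mnx1 in Neuroectoderm/Glia lay in cholinergic cells, and it was higher in 3 of the 4 suspensions compared. The vesicle protein gene Slc10a4 was found in 53.1% and 12.3%.

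In the 47 Th carriers, 4 of 15 GABA regulators were counted (Dlx1, Dlx2 and Dlx5 among them), 1 of 6 sympathetic regulators (Insm1) and 0 of 8 midbrain dopamine regulators, where 4.30% of all genes were. The median log2 ratio of these 15 GABA regulators was -0.69, against 0.0099 for all genes. Ddc, the enzyme after Th in dopamine synthesis, was found in 23.4% of Th carriers and 4.84% of the others, and was higher in 3 of 4 suspensions. The noradrenaline transporter gene Slc6a2 and the dopamine transporter gene Slc6a3 were at 0 UMIs in both neuron-rich types. Hand2, a factor of sympathetic neurons, held 1 UMI in Neuroectoderm/Glia and 11 in CNS Neuron, and Pitx3, a factor of midbrain dopamine neurons, held 3 and 0.

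Of 25 other genes of transmitter synthesis, uptake and breakdown, all were in the table and 4 were highest in Neuroectoderm/Glia among the deep types, with Slc10a4, Slc6a4 and Tph2 among them. Another 4 were highest in CNS Neuron, namely Slc17a7, Slc17a8, Tph1 and Abat, which breaks down GABA (0.664 against 0.395 in Neuroectoderm/Glia). Enzymes with roles outside neurons were highest elsewhere, such as Maoa in Epithelial Cell (0.369) and Ddc in Ependymal Cell (0.289). Slc6a9, the glial type of glycine transporter, was highest in Erythrocyte (0.268) and held 6 UMIs in Neuroectoderm/Glia.

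A few Slc18a2 carriers held the genes of serotonin neurons. In Neuroectoderm/Glia, Slc6a4, the serotonin transporter gene, held 41 UMIs in 3 cells, 40 of them in Slc18a2 carriers. Tph2, the enzyme of neuronal serotonin synthesis, held 28 UMIs in 6 cells, 24 of them in Slc18a2 carriers, where it was found in 4.44% of the cells. Fev, a factor of serotonin neurons, held 19 UMIs in 2 cells. The histamine enzyme gene Hdc held 2 UMIs in 2 cells of that type and was highest in Hematoendothelial Progenitor/Endothelium. Slc17a7 and Slc17a8, the other vesicular glutamate transporter genes, held 24 UMIs in 10 cells and 18 UMIs in 3 cells of Neuroectoderm/Glia, and 50 UMIs in 33 cells and 63 UMIs in 5 cells of CNS Neuron.

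**Figure D5:**
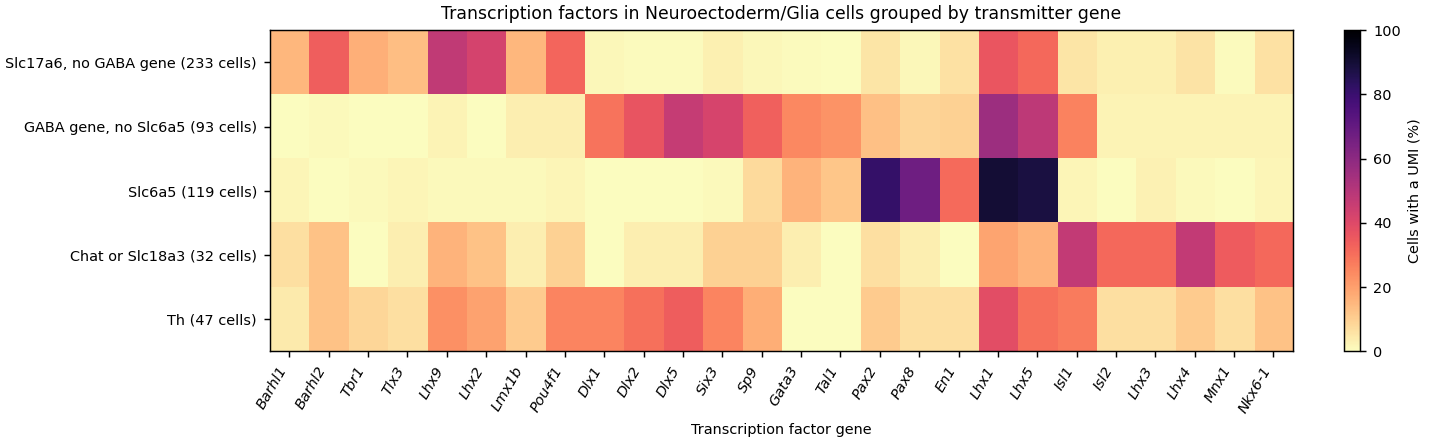
Share of cells (%) with at least 1 UMI of each transcription factor gene (horizontal axis) in 5 groups of Neuroectoderm/Glia cells set by their transmitter genes (vertical axis). Pax2 and Pax8 are darkest in the Slc6a5 group, Dlx5 and Six3 in the group with a GABA gene and no Slc6a5, and Isl1 and Lhx4 in the group with Chat or Slc18a3.

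The F1 suspensions served the study as controls for its barcodes, and the labels also allow a comparison of expression. Levels of the members were therefore tested between the 2 founder and the 2 F1 suspensions within each type. Summed counts were fitted with the quasi-likelihood test of edgeR, and p was adjusted by the Benjamini-Hochberg method over all genes tested in the type. No member passed an adjusted p of 0.05 in Neuroectoderm/Glia (0 of 9 members tested), CNS Neuron (0 of 6), Neuronal Progenitor (0 of 2) or Midgut (0 of 4). Of all genes tested, 1.15%, 0.777%, 0.656% and 1.79% were called in these types, respectively. At an unadjusted p under 0.05 there were 4 members in Neuroectoderm/Glia, 3 in CNS Neuron and 0 in both other types, where 13.6%, 9.14%, 12.8% and 9.48% of all genes tested in the 4 types passed this limit. DESeq2 called none of those to which it gave an adjusted p. The members not tested held too few counts for the filter.

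The largest differences were in the minor classes of Neuroectoderm/Glia, where both founders lay below both F1 suspensions for Chat, Slc18a3, Th and Slc18a2. Such separation was not confined to them. Dbh also lay below there, and Gad1 lay above in both neuron-rich types. In CNS Neuron, Slc17a6 and Slc32a1 lay above, and Chat, Slc18a3, Slc6a5 and Slc18a2 below. The share of all genes that separate in this way was not counted. The log2 fold change of founders against F1 (edgeR) was -1.51 (SE 0.33, edgeR adjusted p = 0.0849) for Th and -1.42 (SE 0.32, edgeR adjusted p = 0.0891) for Slc18a3. For Slc18a2 it was -0.96 (SE 0.36, edgeR adjusted p = 0.279) and for Chat -1.49 (SE 0.65, edgeR adjusted p = 0.367). Without 1 suspension, the value for Chat ran from -3.37 to -0.66. Gad2 went the other way, with both founders above both F1 suspensions (log2 fold change 0.49, SE 0.18, edgeR adjusted p = 0.276). Slc17a6 differed by -0.0024 (SE 0.13) in Neuroectoderm/Glia and by 0.52 (SE 0.18, edgeR adjusted p = 0.341) in CNS Neuron. Without F0_9, the edgeR adjusted p was 0.0430 for Th, 0.0374 for Slc18a3 and 0.0227 for Gad2, and the fit without a filter on low counts, which keeps all 4 suspensions, also called these 3 genes. Over all alternatives run, the adjusted p ranged from 0.000465 to 0.582 for Th, from 0.0017 to 0.756 for Slc18a3 and from 0.00024 to 0.849 for Gad2. With 2 suspensions on each side an exact permutation test of a single value cannot reach p = 0.05.

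Of the 25 other transmitter genes, 10 were tested in Neuroectoderm/Glia and 3 were lower in founders by the same edgeR test, namely Slc10a4, Tph2 and Slc6a4. None was higher. Of all genes tested, 0.495% were lower, but Tph2 and Slc6a4 passed the filter on low counts through the F1 suspensions only. In CNS Neuron, 9 were tested and none was called, with 3 at an unadjusted p under 0.05 (9.14% of all genes). Slc10a4, which is found on vesicles of cholinergic and monoamine neurons, stood at 0.140 and 0.151 in F0_8 and F0_9 against 0.374 and 0.386 in F1_1 and F1_mix (log2 fold change -1.39, SE 0.23, edgeR adjusted p = 0.0354, and up to 0.240 over the alternatives). The calls of Slc6a4 and Tph2 rest on few cells, since Slc6a4 was found in 3 cells and Tph2 in 6, and the call of the serotonin factor Fev rests on 2 cells. These 3 were the genes called among the 7 of the serotonin list, all lower in founders. In F0_8 and F0_9 they stood at 0 and 0 for Fev, 0 and 0.0058 for Slc6a4, and 0.0054 and 0.0116 for Tph2. They thus passed the filter on low counts through F1_1 and F1_mix only, so their number is not weighed against the 0.495% of all genes. Slc6a4 was called in 5 of 7 alternatives, Tph2 in 2 of 6 and Fev in 2 of 5, with an edgeR adjusted p of up to 0.118, 0.240 and 0.181, respectively.

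Of the 10 genes of the motor neuron list, 8 were tested in Neuroectoderm/Glia, and 2 were lower in founders (0.495% of all genes) and none higher, with 6 at an unadjusted p under 0.05 (13.6% of all genes). Isl1 stood at 0.570 and 0.382 in F0_8 and F0_9 against 1.76 and 1.55 in F1_1 and F1_mix (log2 fold change -1.79, SE 0.18, edgeR adjusted p = 0.0056), and it was called under all 8 alternatives run, with an adjusted p of at most 0.0499. Nkx6-1, a factor of ventral progenitors and motor neurons, was also lower (log2 fold change -2.18, SE 0.37, edgeR adjusted p = 0.0425), and 4 of 8 alternatives called it. These levels are sums over the cells of a type, so that fewer cells of a class and less RNA per cell are not told apart by the test. Isl1 was found in 10, 11, 9 and 20 Neuroectoderm/Glia cells of F0_8, F0_9, F1_1 and F1_mix, and Nkx6-1 in 4, 3, 9 and 13. The mean level of Isl1 was higher in CNS Neuron (2.50) than in Neuroectoderm/Glia (1.06). The share of cells with Chat or Slc18a3 was 4.27% and 5.30% in F0_8 and F0_9, and 11.4% and 7.41% in F1_1 and F1_mix. In CNS Neuron, 1 of 8 motor neuron regulators and 1 of 7 sympathetic regulators tested were lower in founders and none was higher. It was the same gene on both lists, and 0.777% of all genes tested there were called in either direction.

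The regulators of the major fates were called in both directions. Of 16 glutamate regulators tested in Neuroectoderm/Glia, Neurod6 was higher in founders and Tlx3 lower, and of 15 GABA regulators none was called, with 5 at an unadjusted p under 0.05 (13.6% of all genes). Tlx3, a factor of glutamatergic neurons of the dorsal spinal cord and hindbrain, stood at 0.226 and 0.220 in F0_8 and F0_9 against 0.596 and 0.591 in F1_1 and F1_mix (log2 fold change -1.41, SE 0.18, edgeR adjusted p = 0.0154). Neurod6, a factor of cortical excitatory neurons, was found in 18 and 7 founder cells, against 0 and 1 cell of F1_1 and F1_mix. In Neuroectoderm/Glia it thus passed the filter on low counts through the founders only. In CNS Neuron, Neurod2 and Neurod6 were higher in founders and Neurog1 lower among 18 glutamate regulators, and Tal2, a factor of midbrain GABA neurons, was the 1 of 16 GABA regulators called (log2 fold change 2.22, SE 0.39, edgeR adjusted p = 0.0322). Several of these calls were lost under other settings. Of 8 alternatives each, Neurog1 was called in 4, Neurod6 of Neuroectoderm/Glia in 5, Tlx3 in 6 and Neurod2, Tal2 and Neurod6 of CNS Neuron in 7, and the adjusted p reached 0.503 for Neurog1, 0.236 for Neurod6 of Neuroectoderm/Glia, 0.089 for Tlx3, 0.27 for Neurod2, 0.532 for Tal2 and 0.466 for Neurod6 of CNS Neuron. Slc17a6 itself, which marks the glutamate fate as a whole, was not called in either type.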

How the data were processed

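The gene expression library of E11.5 embryos was analysed as 4 suspensions, with F0_8 and F0_9 as founders and F1_1 and F1_mix as F1, after the sample labels. UMI counts were deposited by the authors, made by Cell Ranger, in version 7.2.0 by the header, against mm10 with the EGFP sequence added. No source used here states whether intronic reads were counted. The authors' deposited table gave the cell type and suspension of each cell, after their filters and removal of doublets with DoubletFinder. The authors' mitochondrial percent has oligo counts in its base, so the share was recomputed from gene UMIs. No further doublet caller and no correction for free RNA was applied.

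Levels are summed UMIs per 10000 gene UMIs, and oligo counts stayed out. Shares carry exact Clopper-Pearson 95% intervals. The limit for a count of 0 is 3 counts, over the pooled cells of a type. Thinning drew 5000 gene UMIs per cell without replacement. Depth was 16052917 to 19160116 gene UMIs per suspension. Companions of a member with 20 or more carriers in a type were the 5 genes with the highest pooled ratio among those in at least 20% of carriers, with 1 or more UMIs in the other cells and a ratio above 1 in each suspension with 5 or more carriers. Founders and F1 were compared with edgeR 4.0.16 (filterByExpr, TMM, glmQLFTest) in R 4.3.3, tested on simulated data, with DESeq2 1.42.0 as an alternative, in types with 20 or more cells per suspension. Promoters and gene positions came from RefSeq (GRCm38.p6) by symbol, and all 10 genes matched. A genome of an older mouse build was not used. Figures used matplotlib 3.10.9 and tables pandas 2.3.3.

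The 10 members and the lists of regulators were chosen with earlier results of these data known. All 10 members are named. Alternatives were other detection limits, thinning, scaling, filters and leaving out each suspension, and those for the Neuroectoderm/Glia shares were added after the data were seen. A few listed genes are not reported here.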

Additional observations from a re-analysis of the deposited data

How the results depend on the processing

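Under the alternatives listed at the outset, 97 values of shares, overlaps and counts stayed within their limits and 32 moved. Of those for single genes, 350 stayed, 30 lost and 6 gained a call, and 16 changed sign. Part of the 350 are tests that kept their direction and side of the threshold. The rest are member levels in Neuroectoderm/Glia and CNS Neuron that stayed within the SD over suspensions. Under the alternatives chosen after seeing the data, which are those of the shares and overlaps in Neuroectoderm/Glia and of the overlaps without 1 suspension, 68 values stayed and 11 moved. Mean shares and levels without 1 suspension could only stay, because leaving out 1 of 4 values cannot shift a mean by as much as the SD. For the values below that moved or reversed, the cause was not tested beyond the setting itself. Asking for 2 or more UMIs, or thinning to 5000 gene UMIs, lowered the CNS Neuron shares to 14.8% and 14.9% for glutamate, 0.172% and 0.857% for acetylcholine, 1.48% and 1.78% for catecholamine and 3.31% and 4.20% for vesicular monoamine. Asking for 2 GABA genes gave 18.4%. In Neuroectoderm/Glia glutamate fell to 42.1% and 40.1% and vesicular monoamine to 1.88% and 5.23%, while catecholamine was 4.07% with 2 or more UMIs and acetylcholine 3.87% with thinning. With 2 or more UMIs of each gene, 1.27% of Slc17a6 cells in CNS Neuron and 0.962% in Neuroectoderm/Glia held Gad2, and in Neuroectoderm/Glia Gad2 was in 90.0% of Gad1 cells (93.3% thinned) and 87.5% of Slc6a5 cells (82.5% thinned). Of 45 companions, 22 stayed among the 5 named for their member, in any order, with carriers set at 2 or more UMIs. Chat, Slc18a2, Slc18a3 and Th had too few carriers there. Without 1 suspension 25 to 35 stayed, where Chat had too few carriers. The lowest count, 25, was without F0_8. The number of genes highest in Neuroectoderm/Glia was 8 to 10 without 1 suspension.

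For founders against F1 in Neuroectoderm/Glia, 711 genes were called without the filter on low counts, 69 without cells of 5% or more mitochondrial UMIs and 23 (without F1_mix) to 295 (without F0_9) without 1 suspension, against 114. Members called there were 3 without the filter, namely Gad2, Th and Slc18a3, and 0 to 3 without 1 suspension. CNS Neuron had 356 calls without the filter, 45 with DESeq2 and 4 (without F0_8) to 184 (without F0_9) without 1 suspension, against 77. Neuronal Progenitor had 346 and 14 to 136, against 70, and Midgut 18, 3 with DESeq2 and 10 to 37, against 42. The log2 fold change of several members changed sign without 1 suspension. In Neuroectoderm/Glia it ran from -0.15 to 0.15 for Slc17a6 (0.0082 without the filter), from -0.11 to 0.029 for Slc32a1 and from -0.39 to 0.52 for Slc6a5. In CNS Neuron it ran from -0.064 to 0.45 for Gad2 and in Neuronal Progenitor from -1.32 to 0.25 for Slc17a6. In Midgut it ran from -0.67 to 0.58 for Gad2, from -0.48 to 0.45 for Slc6a5 and from -0.47 to 0.71 for Slc17a6 (-0.11 without the filter). The called genes of the regulator and other transmitter lists lost their call in 30 fits and reversed in none. Midgut cells under the mitochondrial limit held too few UMIs for a fit, which was not run. With 1 suspension left on a side, that suspension is assumed to vary like the others. No paired analysis was possible because the labels give the suspensions no shared replicate numbers. Within a type, a gene at the level of Chat or Dbh rests on few UMIs, so that depth limits what can be seen of the rare fates, and all suspensions share 1 library, so that p-values measure only the spread between these suspensions.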
